A study of Mus musculus with 30 samples.

Results

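The genes described here are 34 mouse genes that sense stress in the endoplasmic reticulum or fold, transport and degrade proteins there, followed through 30 libraries of abdominal aorta. They are a list of named genes, set by name and not by a threshold on these values. The list was chosen with earlier results of these data known. All 34 were among the 14379 genes whose annotated transcripts could be summed, and all 34 passed the filter that left 13223 genes for testing. By role, 4 are stress sensors or the transcription factor Xbp1, 12 are chaperones and co-chaperones, 5 form or shuffle disulfide bonds, 7 serve translocation into the reticulum or degradation from it, and 6 are Atf4 and its targets.

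All mice were wild type on the C57BL/6 strain, and each of the 6 groups had 5 libraries. Mice of 5 groups received angiotensin II, the peptide hormone that constricts vessels and raises blood pressure, at 500 ng/kg/min for 28 days. To this, AngII+ETH added ethoxysanguinarine, an alkaloid, at 5 mg/kg/d. AngII+BAI added baicalin, a flavone glucuronide, at 5 mg/kg/d, and AngII+GAS added gastrodin, a phenolic glucoside, at 5 mg/kg/d. AngII+VAL added valsartan, a drug that blocks the AT1 receptor of angiotensin II, at 10.4 mg/kg/d. The AngII group received saline in place of a compound, and the Control group received saline alone for 28 days. The labels give neither the age nor the sex of the mice, nor whether a library holds 1 aorta or several, so p-values measure the spread between these libraries. Whole-tissue RNA was measured after removal of ribosomal RNA, and no marker of smooth muscle, endothelium, fibroblasts, macrophages or white fat was at 0 in all 5 libraries of any group.

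Secreted and membrane proteins fold in the endoplasmic reticulum with the help of lectins, heat shock family chaperones and disulfide isomerases. When unfolded proteins accumulate, the sensors Ern1 (IRE1), Atf6 and Eif2ak3 (PERK) start the unfolded protein response. Atf6 and spliced Xbp1 switch on chaperones and degradation genes, whereas Eif2ak3 slows translation and so favours translation of Atf4, which switches on amino acid genes and stress genes such as Ddit3 (CHOP). The vessel wall exports much collagen and elastin, whose folding uses the same machinery. The 34 genes therefore fall into a chaperone arm and an Atf4 arm, and the level of one was set against the other in every comparison.

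Several libraries stood apart before any group was compared. AngII+BAI 3 and AngII+BAI 5 had summed levels of 10 of 10 smooth muscle markers of 1635 and 2616 FPKM, against 7132 to 11483 FPKM in the other 3 AngII+BAI libraries and 5050 to 8698 FPKM in Control. Their 10 of 10 macrophage markers summed to 2996 and 2017 FPKM, against 455 to 821 FPKM in the other 3 and 319 to 572 FPKM in Control. Plasma cell markers, 7 of 11 of them measured, summed to 513 and 993 FPKM in these libraries, 6.11 to 38.5 FPKM in the other 3 and 25.1 to 113 FPKM in Control, and no marker of these lists was at 0 in all 5 libraries of a group. The plasma cell sum was higher still in AngII+VAL 2, at 2662 FPKM, and 783 FPKM in AngII+ETH 5. The 10 of 10 fibroblast markers summed to 9909 FPKM in AngII+BAI 5, the highest of the 30 libraries, and to 1644 to 2284 FPKM in the other 4 AngII+BAI libraries, against 5871 FPKM in AngII 3, 2049 to 3591 FPKM in the other 4 AngII libraries and 1207 to 1770 FPKM in Control. Skeletal muscle markers, 12 of 14 of them measured, summed to 3066 FPKM in AngII+BAI 3 and 36.1 to 323 FPKM in the other 4 AngII+BAI libraries, against 23.9 to 3915 FPKM in Control. AngII+BAI 1 differed in another way. Its deviation from the 30-library mean fell with transcript length, with a Spearman coefficient of -0.46 across genes, against -0.13 to 0.22 in the other 29 libraries. The 1732 genes with transcripts under 1000 bases had a median deviation of 0.73 in AngII+BAI 1 and the 3249 genes above 4000 bases one of -0.34, on the log2 scale. FPKM (fragments per kilobase of transcript, scaled to the mapped reads of the library) summed to 538323 in AngII+BAI 1 and to 382672 to 482757 in the others. Mitochondrially encoded genes took 12.0 to 28.4% of the FPKM and were lowest, at 12.0 to 15.8%, in AngII 3 and 5, AngII+ETH 4, AngII+BAI 1, 3 and 5, AngII+GAS 5 and AngII+VAL 5. In bulk tissue, fewer cells of a type and less RNA per cell cannot be told apart.

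FPKM is scaled for length, so levels of different genes can be set side by side approximately. AngII+BAI 1, which kept a trend with length, is among the libraries averaged here. Over the 30 libraries the lectin chaperone Calr was the most abundant, with a mean of 230.0 FPKM and a range of 169 to 477 FPKM. Hsp90b1 (GRP94) averaged 166 FPKM and Hspa5 (BiP), the central chaperone of the reticulum, 163 FPKM. The isomerases P4hb and Pdia3 followed with 154 and 151 FPKM, and Pdia6 with 71.8 FPKM. The ranges of Calr, Hsp90b1, Hspa5, P4hb and Pdia3 overlapped. Atf4 averaged 70.8 FPKM and Xbp1 63.0 FPKM, while the sensors Atf6, Eif2ak3 and Ern1 averaged 9.62, 6.05 and 4.51 FPKM. The Atf4 targets were low, from Ppp1r15a at 15.5 FPKM, Asns at 14.8 FPKM and Ddit3 at 13.8 FPKM to Trib3 at 2.02 FPKM and Chac1, a glutathione-degrading enzyme, at 1.35 FPKM. Chac1 rested on 16 to 605 recovered reads per library, with a median of 130.

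**Figure D1:**
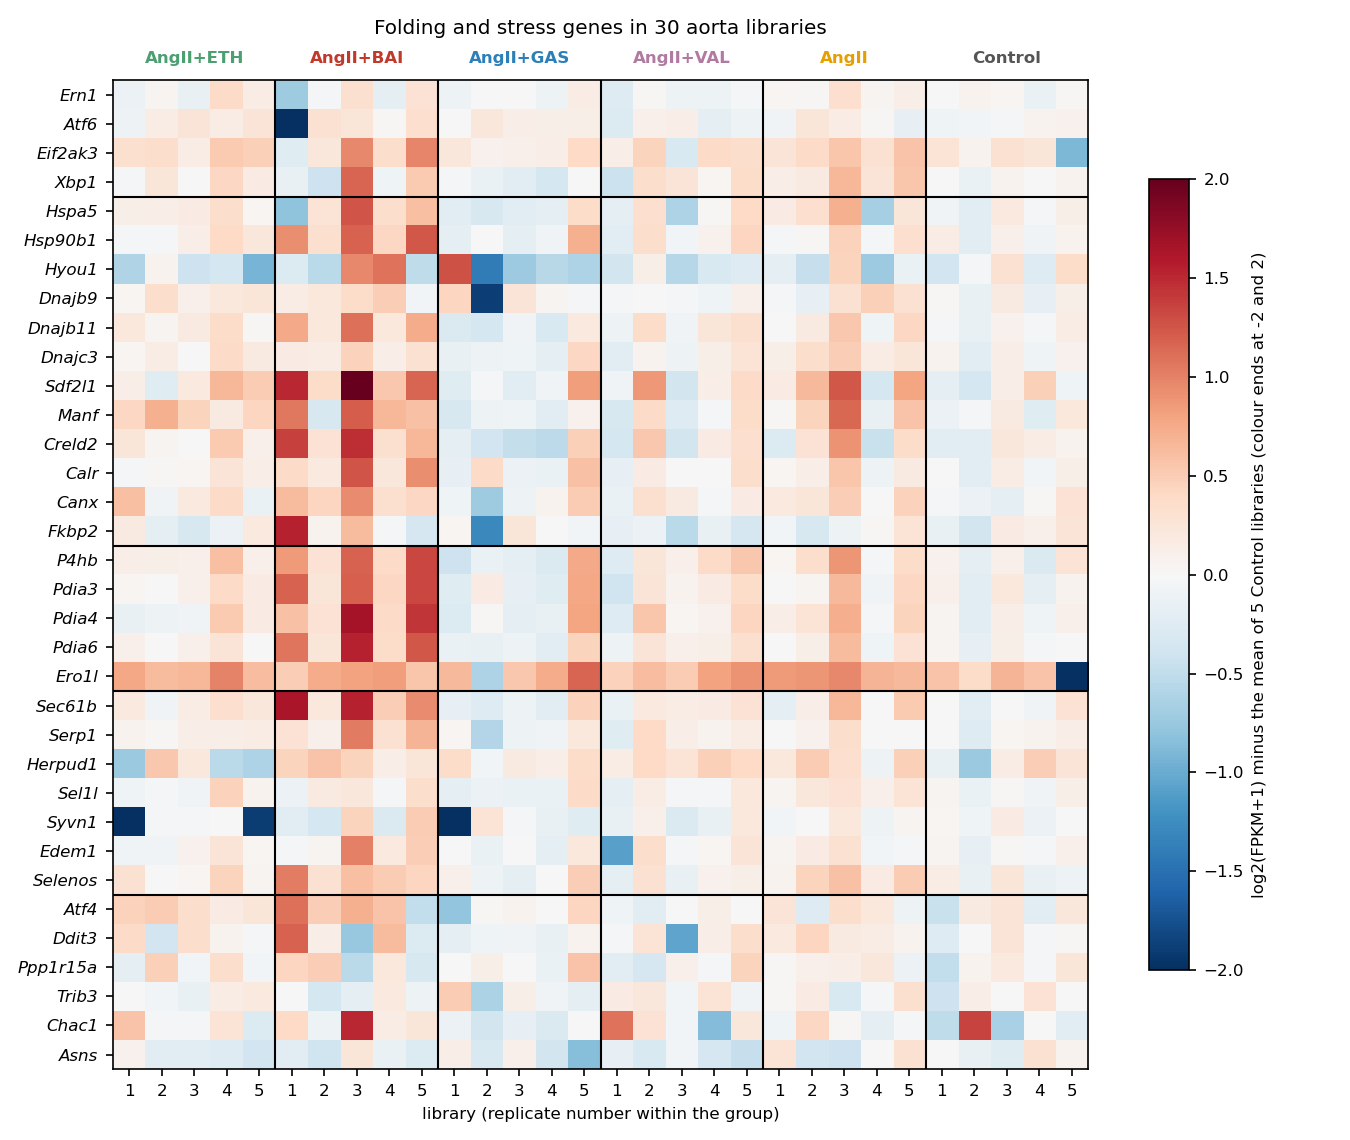
Each row is a gene, grouped by role from sensors at the top to Atf4 and its targets at the bottom, and each column is 1 of 30 libraries. Colour is log2(FPKM+1) minus the mean of the 5 Control libraries; warm cells in AngII+BAI 1, 3 and 5 cover most chaperones and isomerases, among the Atf4 targets Ddit3 is warm in AngII+BAI 1 and Chac1 in AngII+BAI 3, and dark blue cells mark single low values such as Atf6 in AngII+BAI 1.

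Differences were tested with limma on log2(FPKM+1), with a gene called at a Benjamini-Hochberg adjusted p under 0.05 over all 13223 genes. No member was called for a difference among the 6 groups in the overall F-test, where 0.0% of all genes were called. At an unadjusted p under 0.05 the F-test named 14 of the 34, against 15.8% of all genes. Of the 14, 11 are chaperones or isomerases, namely Hsp90b1, Dnajb11, Sdf2l1, Manf, Creld2, Calr, Canx, P4hb, Pdia3, Pdia4 and Pdia6. The others are Sec61b, Serp1 and Selenos. No Atf4 target and no sensor was among them.

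The contrast in which members passed the test was AngII+BAI against Control. There 6 of the 34 were called and all 6 were higher in AngII+BAI, against 1.44% of all genes called and 1.1% called higher. They are the disulfide isomerases Pdia6 and Pdia3, the chaperone Hsp90b1, the Hspa5 co-chaperone Dnajb11, the translocon subunit Sec61b and the degradation factor Selenos. At an unadjusted p under 0.05 the count was 16 of 34, all higher, against 19.0% of all genes. These included the sensor Eif2ak3 and Atf4 itself, but none of the Atf4 targets. Ranges did not overlap for 10 of 34 members, all higher in AngII+BAI, against 3.22% of all genes. The list was chosen with earlier results of these data known, so these shares carry no test of the list. Naming members in full for this contrast was decided after its values were seen.

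Pdia6, an isomerase of the reticulum lumen, had 125, 69.3, 172, 75.9 and 141 FPKM in AngII+BAI libraries 1 to 5, against 61.3, 52.1, 64.0, 57.7 and 59.3 FPKM in Control. Every AngII+BAI value was above the highest Control value, and libraries 1, 3 and 5 were far above it. The means were 117 ± 43.7 FPKM in AngII+BAI and 58.9 ± 4.47 FPKM in Control (SD, n = 5 each), a log2 fold change of 0.89 (SE 0.19, adjusted p = 0.029).

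Hsp90b1 folds secreted and membrane proteins and is the glucose-regulated HSP90 of the reticulum. It had 262, 172, 315, 183 and 329 FPKM in AngII+BAI, against 152, 117, 148, 131 and 144 FPKM in Control, with no overlap. Its log2 fold change was 0.82 (SE 0.19, adjusted p = 0.039). Pdia3, the isomerase that works on glycoproteins held by Calr and Canx, had 279, 145, 282, 164 and 309 FPKM in AngII+BAI, against 132, 106, 142, 107 and 129 FPKM in Control, again without overlap. For Pdia3 the log2 fold change was 0.88 (SE 0.21, adjusted p = 0.040).

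Sec61b, the beta subunit of the channel through which new proteins enter the reticulum, had 117, 43.2, 110.0, 52.4 and 72.2 FPKM in AngII+BAI, against 36.9, 31.9, 37.2, 35.5 and 45.5 FPKM in Control. AngII+BAI 2 lay within the Control range and the other 4 lay above it. Its log2 fold change of 0.96 (SE 0.21, adjusted p = 0.037) was the largest of the 6. Dnajb11, which delivers clients to Hspa5, had 44.0, 29.7, 56.1, 29.6 and 43.1 FPKM in AngII+BAI, against 24.7, 22.8, 27.0, 25.0 and 28.2 FPKM in Control (log2 fold change 0.61, SE 0.16, adjusted p = 0.049). Selenos, a selenoprotein that helps pull misfolded proteins out of the reticulum, had 58.9, 35.3, 43.5, 40.8 and 38.5 FPKM in AngII+BAI, against 31.4, 25.6, 33.9, 25.6 and 26.4 FPKM in Control (log2 fold change 0.57, SE 0.15, adjusted p = 0.049). Both genes had no overlap between the groups. All 6 means were also above their AngII means, and that difference is given further on.

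**Figure D2:**
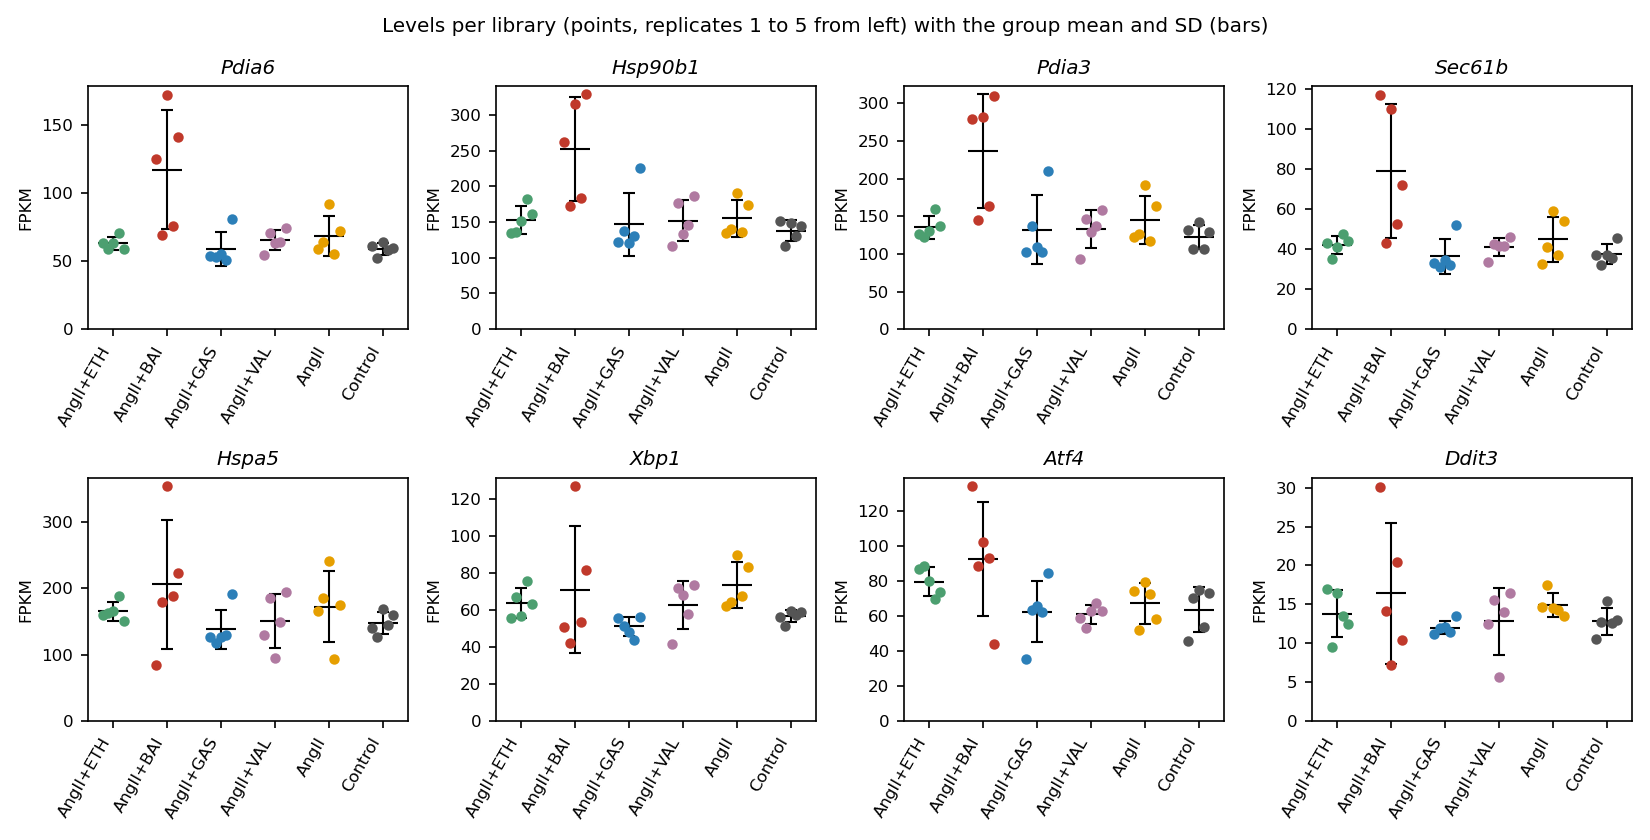
Points are single libraries, replicates 1 to 5 from left within a group, and bars are the group mean and SD in FPKM on axes that start at 0. In Pdia6, Hsp90b1, Pdia3 and Sec61b the points of AngII+BAI 1, 3 and 5 stand above those of every Control library, while Hspa5, Xbp1, Atf4 and Ddit3 spread widely within AngII+BAI.

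The members just outside the threshold in the same contrast belong to the same roles. The isomerases Pdia4 and P4hb had log2 fold changes of 0.87 (adjusted p = 0.057) and 0.80 (adjusted p = 0.061). Sdf2l1, a small partner of Hspa5 complexes, had the largest value of any member, 1.25 (SE 0.34, adjusted p = 0.058), with 18.3, 7.75, 43.5, 8.92 and 14.2 FPKM in AngII+BAI, against 5.03, 4.35, 6.50, 8.43 and 5.43 FPKM in Control. AngII+BAI 2 lay within the Control range of Sdf2l1. Calr had 0.60, Creld2 0.82, Serp1 0.49 and Canx 0.55, with adjusted p of 0.086, 0.088, 0.091 and 0.096. Hspa5 itself was not called. It had 83.9, 179, 354, 189 and 223 FPKM in AngII+BAI, against 140.0, 126, 169, 145 and 160.0 FPKM in Control, so that AngII+BAI held both the lowest and the highest value of the 30 libraries. Its log2 fold change was 0.34 (SE 0.27, adjusted p = 0.51), 0.62 (adjusted p = 0.16) without AngII+BAI 1, in which it was lowest, and -0.05 (adjusted p = 0.94) without AngII+BAI 3 and 5. The 28 members not called had log2 fold changes from -0.43 for Atf6 to that of Sdf2l1. Among them the degradation genes Sel1l and Edem1 had 0.12 and 0.34, the co-chaperone Dnajb9 0.24, the Hspa5 exchange factor Hyou1 0.15 and the prolyl isomerase Fkbp2 0.38.

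The number of calls depended on the libraries used. The count was 0 without AngII+BAI 1, 3 or 5, 0 without Control 1, 2, 3 or 4, 13 without AngII+BAI 2 and 11 without AngII+BAI 4, and it was 1 with voom on recovered reads and 0 in a fit of the 2 groups alone. Without AngII+BAI 3 and 5, the libraries with few smooth muscle markers and many macrophage and plasma cell markers, the log2 fold change of Pdia6 was 0.56 (adjusted p = 0.15) and that of Hsp90b1 0.55 (adjusted p = 0.17). With AngII+BAI 1, 3 and 5 all left out, Pdia6 had 0.30 and Hsp90b1 0.36, and the median over the 15 chaperones and isomerases was 0.32, with all 15 above 0. Those 15 are the chaperone and disulfide bond members other than Fkbp2 and Ero1l. Over the 25 alternatives the lowest adjusted p of the 6 genes lay between 0.0044 and 0.017 and the highest between 0.81 and 0.97. In AngII+VAL 2, the library with the highest plasma cell sum, the mean over the 15 genes was 5.77 on the log2 scale. That value was the highest of the AngII+VAL libraries, inside the AngII range of 5.30 to 6.12 and above the Control range of 5.26 to 5.58. Macrophage markers summed to 1620 FPKM in AngII+VAL 2. In AngII+BAI 1, with smooth muscle markers at 11483 FPKM and plasma cell markers at 38.5 FPKM, the mean was 6.08. Macrophage markers summed to 821 FPKM in AngII+BAI 1, against 319 to 572 FPKM in Control. Its mitochondrially encoded genes took 12.5% of the FPKM, against 21.5 to 24.4% in Control. Fibroblast markers were high in other libraries with high chaperone means, at 9909 FPKM in AngII+BAI 5 (mean 6.20) and 5871 FPKM in AngII 3 (mean 6.12), against 1207 to 1770 FPKM in Control (means 5.26 to 5.58). In AngII+BAI 3, where the chaperone mean was highest at 6.68, they summed to 1644 FPKM. The 10 of 10 brown fat markers summed to 1647 FPKM in AngII+BAI 3, 1029 FPKM in AngII+BAI 5 and 1594 FPKM in AngII 3. They were lowest in AngII 5, at 581 FPKM (mean 5.80), and AngII+ETH 4, at 815 FPKM (mean 5.78). In AngII+BAI 1, 2 and 4 they summed to 3703 to 4600 FPKM. Control had 1356 to 4074 FPKM, with the lowest sum in Control 1 (mean 5.41). Beyond these values the part of cell content in the result was not tested. On the mm10 assembly the called genes lie at chr12:17266545-17284770 (Pdia6), chr10:86690209-86705509 (Hsp90b1), chr2:121413775-121438687 (Pdia3), chr4:47474658-47483242 (Sec61b), chr16:22857845-22879634 (Dnajb11) and chr7:66079649-66089405 (Selenos). Exons of Pdia6, Pdia3 and Hsp90b1 overlap exons of Atp6v1c2, Catsper2 and 1810014B01Rik on the opposite strand, and reads of such pairs cannot be told apart without strand.

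Transcript length was examined because of AngII+BAI 1. In that library several of the shortest members were high, and the 2 longest were low. Sec61b (564 bases) deviated from its 30-library mean by 1.39, Fkbp2 (651 bases) by 1.57 and Ddit3 (862 bases) by 1.13, whereas Ern1 (6946 bases) deviated by -0.71 and Atf6 (7246 bases) by -3.04. Other long members lay nearer 0, with 0.18 for Serp1 (4611 bases), 0.05 for Dnajc3 (5141 bases), -0.18 for Sel1l (5643 bases) and -0.10 for Edem1 (5817 bases), while Eif2ak3 (4513 bases) had -0.51. In AngII+BAI 3, the deviation was 0.98 for Hsp90b1 (2807 bases) and 1.17 for Hspa5 (2593 bases), which have intermediate lengths, and 0.66 for Fkbp2. After each library's trend with length was removed, 7 members were called in AngII+BAI against Control, namely Hsp90b1, Dnajb11, P4hb, Pdia3, Pdia4, Pdia6 and Sec61b. Selenos (1139 bases) was no longer called, and P4hb and Pdia4 were. This correction was chosen after the data were seen.

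**Figure D3:**
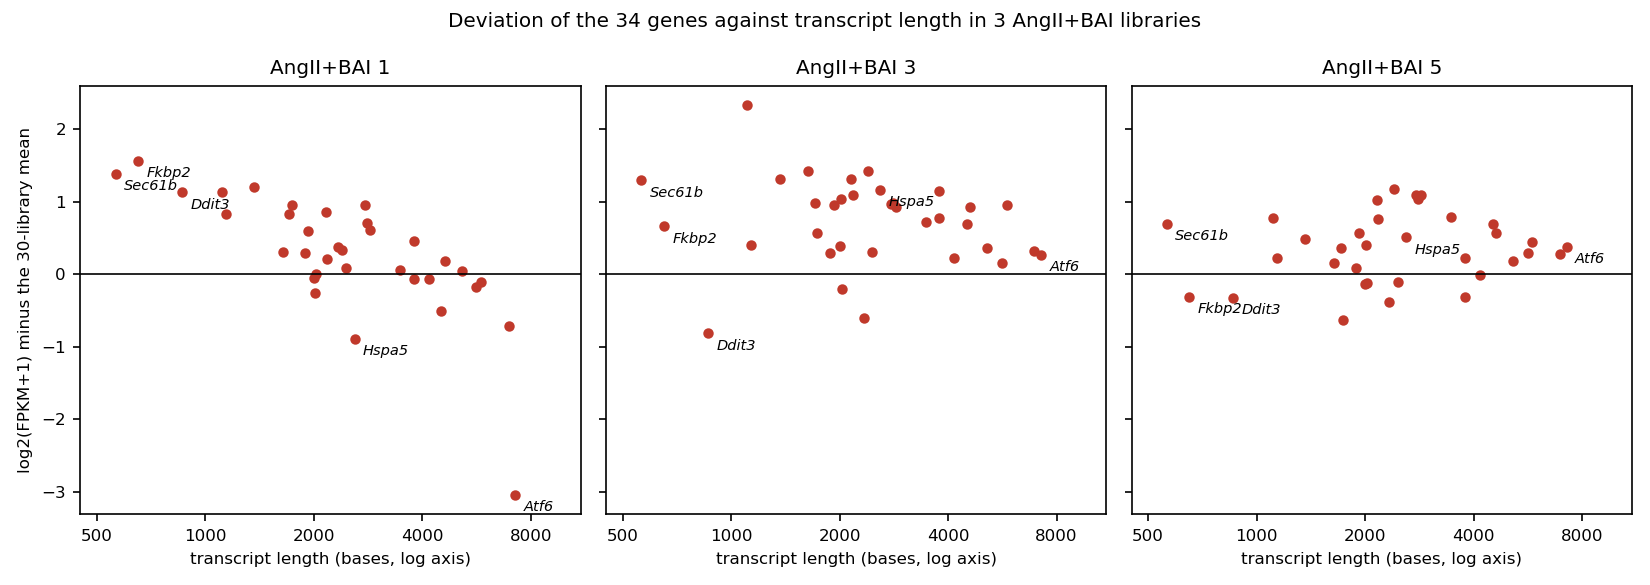
Each point is 1 of the 34 genes, placed by transcript length in bases on a log axis and by its deviation in log2(FPKM+1) from the mean of all 30 libraries. In AngII+BAI 1 the shortest gene, Sec61b, is at 1.39 and the longest, Atf6, at -3.04, with most other genes above 4000 bases near 0, while the highest points are Sdf2l1 (1108 bases) at 2.33 in AngII+BAI 3 and Pdia4 (2399 bases) at 1.18 in AngII+BAI 5.

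Against AngII, the comparison that isolates the added compound, AngII+BAI gave no call among the 34, with 0.333% of all genes called. The count at an unadjusted p under 0.05 was 11 of 34, all higher in AngII+BAI, against 14.6% of all genes, and no member's ranges were separate, against 1.7% of all genes. Pdia6 had the smallest p, with 117 ± 43.7 FPKM in AngII+BAI and 68.3 ± 14.5 FPKM in AngII (log2 fold change 0.70, SE 0.19, adjusted p = 0.092). Hsp90b1 had 0.66 (adjusted p = 0.12), Sec61b 0.73 (adjusted p = 0.12) and Pdia3 0.66 (adjusted p = 0.15). In AngII, Pdia6 had 59.0, 63.7, 91.8, 55.2 and 71.7 FPKM, and AngII 3 and AngII 5 lay above the lowest AngII+BAI value. The count was 0 by voom, 3 with median-ratio size factors, 2 with the length trend removed, 1 after rescaling without mitochondrially encoded genes, 1 without AngII 3 and 4 without AngII+BAI 2. These contrasts share the AngII+BAI libraries with the one against Control.

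**Figure D4:**
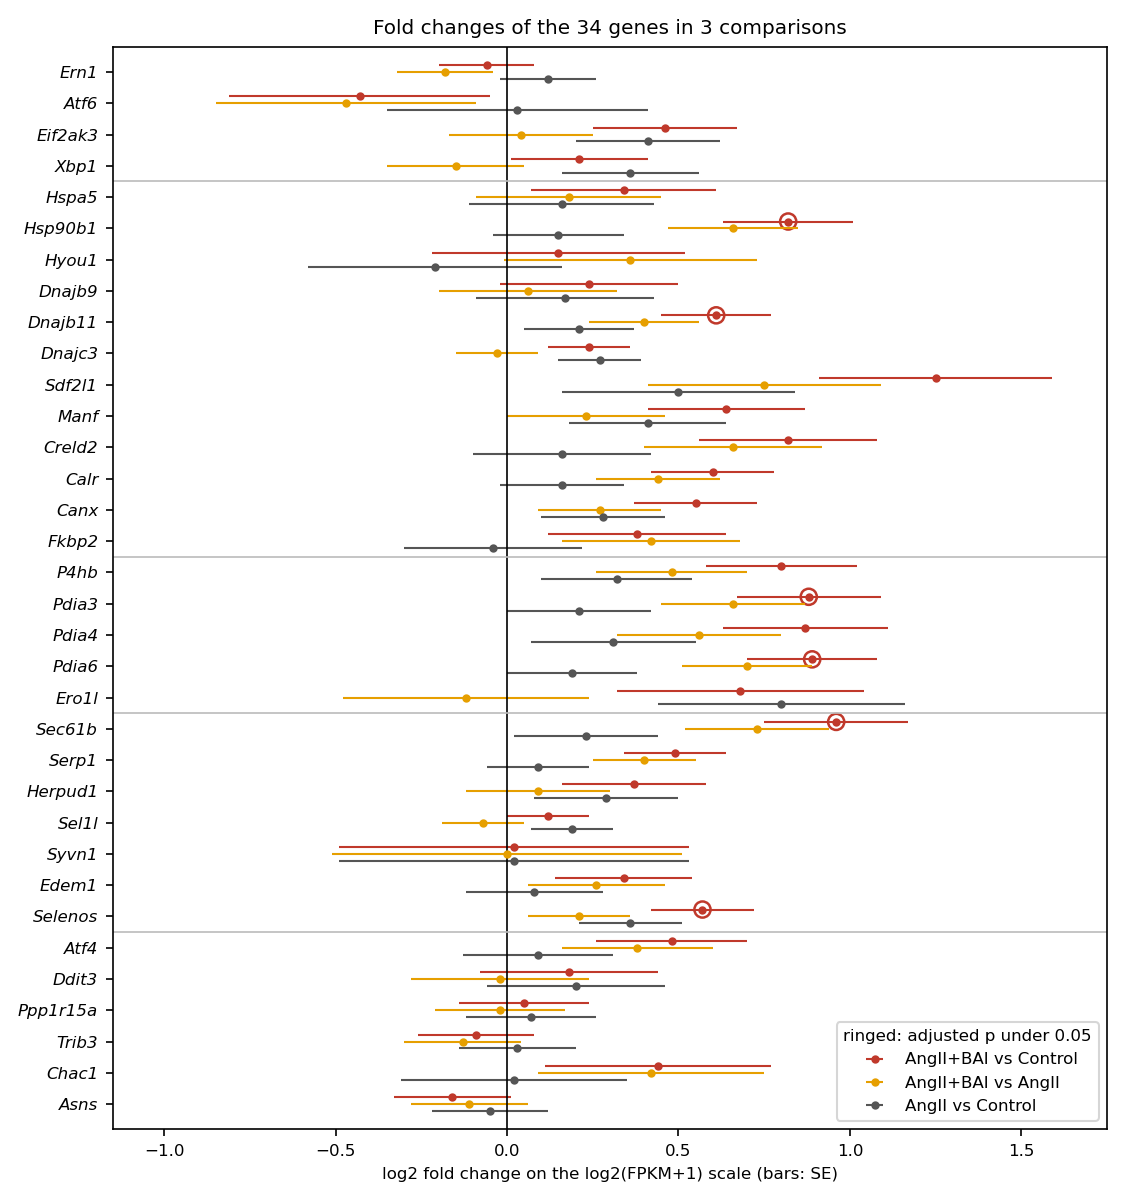
Points are log2 fold changes on the log2(FPKM+1) scale with SE bars for AngII+BAI against Control, AngII+BAI against AngII and AngII against Control; rings mark an adjusted p under 0.05. Rings sit on Hsp90b1, Dnajb11, Pdia3, Pdia6, Sec61b and Selenos in AngII+BAI against Control, and the Atf4 targets at the bottom lie near 0 or have wide bars.

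The chaperone arm and the Atf4 arm were contrasted as 15 chaperones and isomerases against 5 Atf4 targets. Left out of the 15 were Fkbp2 and Ero1l, whose log2 fold changes in AngII+BAI against AngII were 0.42 and -0.12. In AngII+BAI against AngII, 14 of the 15 had a positive log2 fold change, with a median of 0.44, and 9 had an unadjusted p under 0.05. Of the Atf4 targets 1 of 5 was positive, with a median of -0.02, and the median of all genes was -0.01. The median of the first list minus that of the second was 0.46 in AngII+BAI against AngII. It was 0.15 without AngII+BAI 3, 0.29 without AngII+BAI 5, 0.06 without both, 0.10 without AngII+BAI 1, 3 and 5 and 0.16 with array weights, which give less weight to libraries that vary more. In the wider lists of other genes the 2 medians were the same to 2 decimals in this comparison. The 28 other folding and disulfide enzymes had a median of 0.12 in AngII+BAI against AngII, with 18 positive, and the 36 other genes of the Atf4 and amino acid program also had 0.12, with 24 positive. Against Control these medians were 0.34 for the folding enzymes and 0.27 for the Atf4 program. For the 15 chaperones and isomerases and the 5 Atf4 targets, the difference in medians was -0.07 in AngII+ETH against AngII and -0.09 in AngII+GAS against AngII. It was -0.04 in AngII+VAL against AngII and 0.18 in AngII against Control. For AngII+BAI, scaling by quantiles, by median ratios and without mitochondrial genes gave chaperone medians of 0.33, 0.43 and 0.43 and Atf4 target medians of -0.06, -0.03 and -0.03. The lists were chosen with earlier results of these data known, so these medians describe the libraries and carry no test.

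Per library, the mean log2(FPKM+1) of the 15 genes was 6.08, 5.62, 6.68, 5.86 and 6.20 in AngII+BAI, against 5.47, 5.63, 6.12, 5.30 and 5.80 in AngII and 5.41, 5.26, 5.58, 5.39 and 5.57 in Control. Every AngII+BAI library lay above every Control library, and AngII 2, AngII 3 and AngII 5 lay within the AngII+BAI range. In the libraries named above with mitochondrial shares of 12.0 to 15.8%, over all groups, the mean of the 15 genes was 5.74 to 6.68. In the other libraries it was 5.11 to 5.86, with AngII+BAI 4 (5.86) and AngII+VAL 2 (5.77) the highest. The part of this share in the chaperone means was not tested. The mean of the 5 Atf4 targets was 3.25, 2.85, 2.94, 3.11 and 2.75 in AngII+BAI, against 2.98, 3.04, 2.81, 2.92 and 3.0 in AngII and 2.56, 3.17, 2.81, 3.01 and 2.92 in Control, and these groups overlapped throughout.

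**Figure D5:**
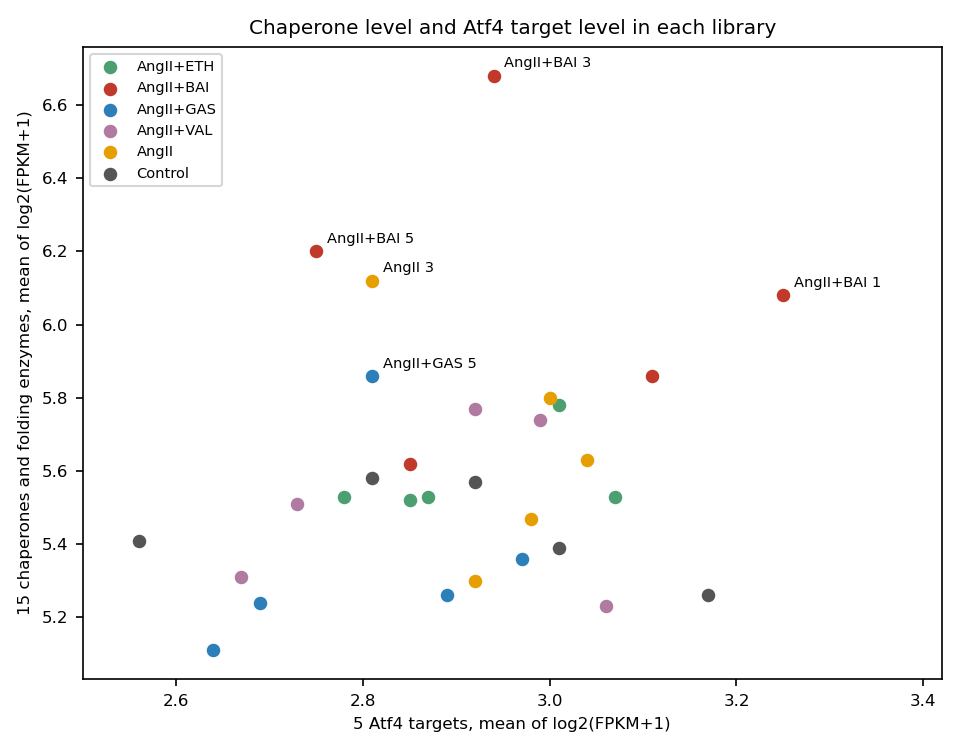
Each point is a library, placed by the mean log2(FPKM+1) of 5 Atf4 targets (horizontal) and of 15 chaperones and isomerases (vertical), and coloured by group. AngII+BAI 3, AngII+BAI 5 and AngII 3 are high on the vertical axis at 6.68, 6.20 and 6.12 with Atf4 target means of 2.94, 2.75 and 2.81, inside the range of the Control libraries. AngII+BAI 1, at 6.08, has an Atf4 target mean of 3.25, above the Control maximum of 3.17.

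Atf4 encodes the transcription factor that the Eif2ak3 branch raises by translation, so its RNA is not a measure of its activity. It had 134, 88.1, 102, 92.7 and 43.9 FPKM in AngII+BAI, against 74.2, 51.8, 79.4, 72.3 and 58.1 FPKM in AngII and 45.5, 70.3, 74.4, 53.6 and 72.7 FPKM in Control. The first 4 values are above both other ranges and AngII+BAI 5 is below them. Atf4 had a log2 fold change of 0.38 (adjusted p = 0.42) against AngII and 0.48 (adjusted p = 0.24) against Control. Ddit3, the pro-apoptotic factor CHOP, had 30.1, 14.1, 7.11, 20.4 and 10.4 FPKM in AngII+BAI, against 10.5, 12.7, 15.4, 12.6 and 13.0 FPKM in Control. The library highest in chaperones, AngII+BAI 3, was the lowest of its group in Ddit3, and AngII+BAI 1 was the highest. Its exons overlap those of Mars on the opposite strand, and the kit named in the labels does not keep strand, so reads of these genes cannot be told apart. Trib3, a pseudokinase that feeds back on the Atf4 response, averaged 1.80 ± 0.40 FPKM in AngII+BAI, 2.07 ± 0.489 FPKM in AngII and 2.01 ± 0.513 FPKM in Control. Asns, asparagine synthetase, averaged 14.7 ± 2.77 FPKM in AngII+BAI, 16.1 ± 4.01 FPKM in AngII and 16.4 ± 2.60 FPKM in Control. Ppp1r15a, which restarts translation, averaged 15.8 ± 5.00 FPKM in AngII+BAI, 15.5 ± 1.45 FPKM in AngII and 14.8 ± 2.94 FPKM in Control. Over the other groups, Atf4 averaged 79.5 ± 8.19 FPKM in AngII+ETH, 62.2 ± 17.5 FPKM in AngII+GAS and 60.7 ± 5.41 FPKM in AngII+VAL. Ddit3 averaged 13.8 ± 3.05 FPKM in AngII+ETH, 12.0 ± 0.897 FPKM in AngII+GAS, 12.8 ± 4.30 FPKM in AngII+VAL and 14.9 ± 1.51 FPKM in AngII (SD, n = 5 each). None of these differences was called. Chac1 was at 4.89 FPKM in AngII+BAI 3 and at 4.25 FPKM in Control 2, against 0.319 to 1.71 FPKM in the other libraries of these groups.

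Promoters of the members were read because chaperones varied together from library to library, as shown further on. RefSeq promoter windows of 300 bases, from 250 before to 50 after the start of transcription (build GRCm38.p6), were found for 31 of the 34 members, and Ero1l was matched under the symbol Ero1a. The ER stress response element (ERSE) was searched on both strands as CCAAT and CCACG with 9 bases between them. It was found in 8 of the 31 members, namely Hspa5, Hsp90b1, Dnajc3, Creld2, Calr, Canx, Pdia6 and Syvn1, and in 0.119% of all 32851 windows. ERSE-II, searched as ATTGG and CCACG with 1 base between them, was found in Dnajb11 and Herpud1 and in 0.0365% of all windows; its parts are those of the ERSE with the first on the other strand. TGACGTGG, the UPRE to which Xbp1 binds, was found in no member window and in 0.676% of all windows. The C/EBP-ATF element, searched as TGATG and AA with 1 base between them, was found in Trib3, Chac1, Asns and Herpud1 and in 3.97% of all windows. No match in a member overlapped another. Among the 6 called members, Hsp90b1 and Pdia6 have an ERSE and Dnajb11 an ERSE-II, while the windows of Pdia3, Sec61b and Selenos hold none of the searched motifs.

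The stretches below show the elements in the central chaperone, in the called members Hsp90b1 and Pdia6, in a degradation gene with ERSE-II and in an Atf4 target. Each runs 5′ to 3′ on the gene's strand and capitals mark the letters of the motif. The Hspa5 stretch lies at chr2:34771995-34772073 on the plus strand, with its match starting 65 bases before the start of transcription. The Hsp90b1 stretch lies at chr10:86705503-86705686 on the minus strand and holds a match on each strand, 212 and 107 bases before the start. The Pdia6 stretch lies at chr12:17266461-17266539 on the plus strand with its match at 98 bases. The Herpud1 stretch lies at chr8:94386347-94386417 on the plus strand with ERSE-II at 52 bases. The Asns stretch lies at chr6:7693210-7693262 on the minus strand with its C/EBP-ATF element at 23 bases.
Hspa5: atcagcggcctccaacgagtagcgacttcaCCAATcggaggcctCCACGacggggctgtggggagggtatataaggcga
Hsp90b1: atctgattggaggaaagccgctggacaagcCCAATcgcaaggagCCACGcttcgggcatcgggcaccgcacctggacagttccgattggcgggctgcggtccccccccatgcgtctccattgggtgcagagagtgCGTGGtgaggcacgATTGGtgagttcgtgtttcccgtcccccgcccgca
Pdia6: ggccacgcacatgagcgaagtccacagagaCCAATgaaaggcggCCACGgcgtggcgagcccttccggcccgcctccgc
Herpud1: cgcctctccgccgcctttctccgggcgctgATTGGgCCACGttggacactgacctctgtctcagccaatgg
Asns: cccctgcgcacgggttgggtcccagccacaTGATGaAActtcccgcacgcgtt

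Angiotensin II alone called no member against Control, and 0.0% of all genes were called. At an unadjusted p under 0.05 limma gave 3 of 34 against 11.2% of all genes, and voom called none. Of the 34, 31 had a positive log2 fold change with a median of 0.18, but 66.6% of all genes were also positive and their median was 0.11. With median-ratio size factors, which put the median of all genes at 0.01, 23 of the 34 were positive, and with quantile normalization, at -0.03, 24 were. The 3 members were Selenos (0.36, SE 0.15, adjusted p = 0.35), Dnajc3 (0.27, SE 0.12, adjusted p = 0.39) and the oxidase Ero1l (0.80, SE 0.36, adjusted p = 0.39). Ero1l, which reoxidizes the isomerases, had 17.0, 17.4, 18.5, 15 and 14.6 FPKM in AngII, against 13.9, 11.9, 15, 13.8 and 1.2 FPKM in Control. Control 5 was far below every other library, and without it the log2 fold change was 0.26 (adjusted p = 0.67).

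Xbp1 was the member whose AngII and Control ranges were separate, against 3.55% of all genes. It had 62.2, 64.1, 89.4, 67.3 and 83.3 FPKM in AngII, against 56.0, 51.2, 59.1, 56.9 and 58.9 FPKM in Control (log2 fold change 0.36, SE 0.20, adjusted p = 0.52). In AngII+GAS it had 55.3, 51.3, 48.2, 43.9 and 56.1 FPKM, all below the AngII values, with a log2 fold change of -0.51 (SE 0.20, adjusted p = 0.27) against AngII. Both comparisons use the same AngII libraries. Xbp1 averaged 63.6 ± 8.31 FPKM in AngII+ETH, 70.9 ± 34.5 FPKM in AngII+BAI and 62.5 ± 13.1 FPKM in AngII+VAL. The RNA of Xbp1 is activated when Ern1 cuts out 26 bases. None of the 4 annotated transcripts has an intron of 26 bases, the shortest being 300 bases, so the active form was not read here.

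The sensors showed no call in any comparison. Ern1 averaged 4.75 ± 0.885 FPKM in AngII+ETH, 4.40 ± 1.43 in AngII+BAI, 4.43 ± 0.406 in AngII+GAS, 4.12 ± 0.366 in AngII+VAL, 4.93 ± 0.548 in AngII and 4.45 ± 0.285 in Control (FPKM, SD, n = 5 each). Its AngII+VAL values, 3.56, 4.52, 4.06, 4.09 and 4.37 FPKM, all lay below the AngII values of 4.60, 4.55, 5.87, 4.68 and 4.96 FPKM, a separation found for 2.96% of all genes (log2 fold change -0.21, SE 0.14, adjusted p = 0.62). Eif2ak3 had 3.84, 5.66, 10.1, 6.29 and 10.2 FPKM in AngII+BAI, against 5.89, 4.96, 6.05, 5.75 and 2.07 FPKM in Control (0.46, adjusted p = 0.24). Atf6 was at 0.225 FPKM in AngII+BAI 1, where it rested on 114 recovered reads, and between 7.54 and 12.1 FPKM in the other 29 libraries.

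Ethoxysanguinarine added to angiotensin II called no member, with 0.0% of all genes called, and voom called none. At an unadjusted p under 0.05 there were 2 of 34 against 3.41% of all genes, and no member's ranges were separate, against 0.499%. Both belong to degradation from the reticulum, and both have uneven libraries. Syvn1, the ubiquitin ligase Hrd1, had 0.0543, 10.6, 10.5, 11 and 2.20 FPKM in AngII+ETH, against 10.4, 10.8, 12.8, 10.1 and 11.3 FPKM in AngII (log2 fold change -1.11, adjusted p = 0.99). In the low libraries another Syvn1 transcript, listed for AngII+ETH libraries alone, stood at 11 and 9.97 FPKM, and with all listed transcripts summed the value was -0.05. Herpud1, which recruits clients to that ligase, had 13.4, 34, 26.9, 15.7 and 14.8 FPKM in AngII+ETH, against 26.9, 33.2, 29.5, 21.4 and 32.7 FPKM in AngII (-0.51, SE 0.21, adjusted p = 0.99). Among chaperones, Hspa5 averaged 165 ± 14.2 FPKM in AngII+ETH and 172 ± 53.5 FPKM in AngII, and Hsp90b1 153 ± 19.5 FPKM in AngII+ETH and 155 ± 25.8 FPKM in AngII (SD, n = 5 each).

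Gastrodin added to angiotensin II called no member, with 0.0151% of all genes called, and voom called none. There were 4 of 34 at an unadjusted p under 0.05, all lower in AngII+GAS, against 13.7% of all genes, and separate ranges for Xbp1 alone, against 2.31%. Of the 34, 32 had a negative log2 fold change, with a median of -0.23, but the median of all genes was -0.17. With median-ratio size factors, where that median was -0.03, 23 of the 34 were negative. The 4 were Xbp1, the co-chaperones Dnajc3 (-0.30, SE 0.12, adjusted p = 0.28) and Dnajb11 (-0.37, SE 0.16, adjusted p = 0.29) and Manf (-0.54, SE 0.23, adjusted p = 0.30), a secreted protein of the reticulum. Manf had 21.8, 25.7, 26, 23.6 and 29.2 FPKM in AngII+GAS, against 28.0, 37.8, 62.5, 24.9 and 41.4 FPKM in AngII. AngII+GAS 5 was the high library of its group for most chaperones. Hsp90b1 had 122, 137, 121, 131 and 225 FPKM in AngII+GAS, and P4hb 92.0, 113, 108, 101 and 210.0 FPKM in AngII+GAS.

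Valsartan added to angiotensin II called no member, with 0.0% of all genes called, and voom called none. At an unadjusted p under 0.05 the single member was Selenos, against 10.8% of all genes, with 24.6, 35.4, 25.6, 30.1 and 30.9 FPKM in AngII+VAL, against 29.9, 39.2, 43.3, 32.1 and 40.7 FPKM in AngII (-0.32, SE 0.15, adjusted p = 0.43). Dnajc3 followed with -0.24 (adjusted p = 0.47) and Manf with -0.38 (adjusted p = 0.57). Hsp90b1 averaged 152 ± 29.1 FPKM in AngII+VAL and 155 ± 25.8 FPKM in AngII.

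Set against Control instead, the other compound groups gave no call either. The shares of all genes called were 0.0% for AngII+ETH, 0.00756% for AngII+GAS and 0.0% for AngII+VAL. At an unadjusted p under 0.05 the members were 2 of 34 in AngII+ETH (Ero1l and Syvn1), against 5.18% of all genes, 0 of 34 in AngII+GAS, against 3.7%, and 0 of 34 in AngII+VAL, against 3.84%. The chaperone median was 0.16 in AngII+ETH, -0.06 in AngII+GAS and 0.09 in AngII+VAL. These comparisons share the Control libraries.

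Within groups the chaperones varied together. After each gene's group mean was removed, the 105 pairs among the 15 chaperones and isomerases had a median Pearson coefficient of 0.67 over 30 libraries, with 98 pairs above 0, and 0.71 over the 25 libraries without AngII+BAI. The 10 pairs among the Atf4 targets had a median of 0.03, and the 75 pairs between the lists one of -0.05. Xbp1 with the chaperones had a median of 0.66, with all 15 above 0, and Atf4 with its targets 0.06. Outside the 15, Xbp1 had -0.027 with Fkbp2 and 0.035 with Ero1l. Genes of a library share its depth, tissue content and scaling, so these coefficients describe the libraries. No coefficient for pairs drawn from all genes is given beside them. The genes whose pattern was most like that of Hspa5, by the same measure over 30 libraries, were Rbm19 (0.83), Ttll12 (0.82), Slc35c1 (0.82), Osbp (0.82) and Ints14 (0.81). The closest members were Ern1 (0.73), Pdia4 (0.70) and Calr (0.69). Dnajb9, a co-chaperone known as a strong Xbp1 target, stood at 0.08. Among 13222 genes ranked by this coefficient, Ern1, Pdia4 and Calr held ranks 79, 151 and 193, Hsp90b1 rank 1397 and Dnajb9 rank 6924. Many genes outside the list were therefore closer to Hspa5 than most members.

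The rest of the pathway was read from lists of other genes, also chosen with earlier results known. In AngII+BAI against Control, 1 of 28 tested folding and disulfide enzymes, 0 of 16 collagen folding genes, 2 of 24 translocation and glycosylation genes, 0 of 20 degradation genes, 2 of 21 sensors and transcription factors and 4 of 36 genes of the Atf4 and amino acid program were called. All 9 were higher in AngII+BAI, against 1.1% of all genes called higher. Calls in this contrast depended on the fit, with 190 of all genes in the main fit and 329 with all listed transcripts. With voom there were 28, without AngII+BAI 3 and 5 there were 33, and a fit of the 2 groups alone gave 5. How many of the 9 stayed called in these fits is not given here. The folding enzyme is the prolyl isomerase Fkbp11, with 7.12 ± 4.37 FPKM in AngII+BAI and 1.35 ± 0.478 FPKM in Control (log2 fold change 1.59, SE 0.39, adjusted p = 0.040). The translocon-associated Ssr3 had 127 ± 26.4 FPKM in AngII+BAI and 86.3 ± 6.75 FPKM in Control (0.53, adjusted p = 0.047). Ostc, of the oligosaccharyltransferase, had 72.6 ± 28.4 FPKM in AngII+BAI and 34.3 ± 5.33 FPKM in Control (0.97, adjusted p = 0.049). The pro-apoptotic Bax had a log2 fold change of 0.90 (adjusted p = 0.044) and the oxidative stress factor Nfe2l2 one of 0.40 (adjusted p = 0.047). In the Atf4 and amino acid list the stress protein Nupr1 had 1.61 (adjusted p = 0.039), the mTOR inhibitor Ddit4 1.33 (adjusted p = 0.049), the proline enzyme Pycr1 1.18 (adjusted p = 0.040) and the amino acid transporter subunit Slc3a2 0.65 (adjusted p = 0.020). Nupr1 had 452, 157, 64.7, 195 and 150 FPKM in AngII+BAI, against 68.7, 56.0, 43.0, 49.3 and 59.5 FPKM in Control, so that AngII+BAI 1 was far above the others and AngII+BAI 3 lay within the Control range. Ddit4 had 16.4, 35.1, 16.7, 8.47 and 25.0 FPKM in AngII+BAI, against 4.26, 5.03, 14.4, 5.59 and 7.53 FPKM in Control, and AngII+BAI 4 lay within the Control range. AngII+BAI 2 lay within the Control range for Fkbp11, Ostc and Bax, and so did AngII+BAI 4 for Bax, while Ssr3, Nfe2l2, Pycr1 and Slc3a2 had no overlap. In each of the other main comparisons no gene of these lists was called. Slc38a2, an amino acid transporter that Atf4 induces, came closest in AngII against Control, with 53.7 ± 17.8 FPKM in AngII and 21.3 ± 8.26 FPKM in Control (1.31, SE 0.28, adjusted p = 0.14). Slc3a2 averaged 39.1 ± 2.45 FPKM in AngII+ETH, 35.0 ± 4.02 FPKM in AngII+GAS, 34 ± 2.75 FPKM in AngII+VAL, 48.8 ± 7.86 FPKM in AngII and 34 ± 3.94 FPKM in Control. Its log2 fold change against AngII was -0.30 (adjusted p = 0.99), -0.46 (adjusted p = 0.17) and -0.50 (adjusted p = 0.13) for these compounds, and 0.50 (adjusted p = 0.16) for AngII against Control. The collagen-modifying lysyl hydroxylase Plod3 had 36.8 ± 8.25 FPKM in AngII+BAI, against 15 ± 8.0 FPKM in AngII (1.35, SE 0.35, adjusted p = 0.079).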

How the data were processed

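Whole-tissue RNA of abdominal aorta, in 30 libraries, was depleted of ribosomal RNA and sequenced from a kit that keeps no strand, per the labels' protocols. The deposited files list FPKM per transcript; the aligner and quantifier are not given in the sources used here, and the submitters' processing notes name mm10 and limma, without a version. Of 33677 Ensembl transcripts in any file, 33638 matched GENCODE M21. FPKM was summed per gene over the 27797 annotated transcripts listed in all files, giving 14379 genes. Steps in low FPKM values gave whole reads within 0.1 read for 99.02 to 99.42% of values and a depth of 69.79 to 80.87 M reads per library; 3 reads on a 2-kb transcript equal 0.0185 to 0.0215 FPKM, which covers counting error alone. The 13223 genes that reached 1 FPKM in 5 libraries were tested on log2(FPKM+1), a pseudocount of 1 that understates changes of low genes, with limma 3.58.1 in R 4.3.3. The model held 6 group means over all 30 libraries, with trend and robust variance moderation, and p-values were adjusted by Benjamini-Hochberg over 13223 genes. On data simulated for AngII against Control, with 100 genes changed per size, it recovered 64% at a log2 change of 1 and 90% at 2. There were 9 false calls. Smaller changes were not simulated. The voom fit used the recovered reads. Summaries used Python 3.11.15, numpy 2.4.6 and pandas 2.3.3. Library numbers follow accession order and pair nothing.

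The members and all gene lists were chosen with earlier results of these data known. Named in full were members called, members with separate ranges, the 3 smallest p-values in each direction and Hspa5, Hsp90b1, Xbp1, Atf4, Ddit3, Trib3, Asns and Herpud1; other pathway genes were named when called or among the 2 smallest p-values in each direction. This rule was extended to AngII+BAI against Control after its values were seen. Promoter sequences are RefSeq's, build GRCm38.p6. Alternatives covered the pseudocount, the filter, scaling, array weights, transcripts, voom, tissue terms and leaving out libraries.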

Additional observations from a re-analysis of the deposited data

Results flagged for a closer look

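In 20 of the 204 groups of 5 libraries examined, for 17 members, 1 library stood far from the other 4 (Dixon's ratio above 0.71); chance flags about 1 in 20 groups. Of the 20, 10 were high values in AngII+GAS 5. There Hspa5 was at 191 FPKM (other libraries of the group 118 to 129), Hsp90b1 at 225 FPKM (121 to 137), Dnajc3 at 43.2 FPKM (27.9 to 30.4), Sdf2l1 at 11.1 FPKM (4.73 to 5.62) and Creld2 at 20.4 FPKM (9.69 to 12.5). The isomerases P4hb, Pdia4 and Pdia6 were at 210.0 FPKM (92.0 to 113), 59.2 FPKM (28.0 to 34.7) and 80.6 FPKM (50.8 to 54.8), Sec61b at 51.8 FPKM (30.9 to 34.6) and Sel1l at 31.0 FPKM (20.5 to 21.6). The share of FPKM in mitochondrially encoded genes was 15.7% in AngII+GAS 5 and 20.3 to 28.4% in the other AngII+GAS libraries, and smooth muscle markers summed to 12426 FPKM, the highest of the 30 libraries; their part in these values was not tested.

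AngII+ETH 4 was high for P4hb, at 188 FPKM (132 to 136), and for Sel1l, at 32.8 FPKM (22.2 to 24.8). Serp1 was at 50 FPKM in AngII 3 (38.6 to 41.6). Single low values were Atf6 at 0.225 FPKM in AngII+BAI 1 (9.59 to 12.1), Fkbp2 at 9.79 FPKM in AngII+GAS 2 (24.2 to 29.9), and in Control 5 Eif2ak3 at 2.07 FPKM (4.96 to 6.05) and Ero1l at 1.2 FPKM (11.9 to 15). Single high values were Hyou1 at 17.3 FPKM in AngII+GAS 1 (1.88 to 4.19) and Chac1 at 4.89 FPKM in AngII+BAI 3 (0.922 to 1.71) and 4.25 FPKM in Control 2 (0.319 to 1.08).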

How the results depend on the processing

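In AngII+BAI against Control, where 6 members were called, the count was 2 with quantile normalization, 0 with array weights, 0 in a fit of the 2 groups alone, 1 with voom on recovered reads and 1 with neuron and skeletal muscle scores as terms. It was 0 without AngII+BAI 3 and 5 and 0 without AngII+BAI 1, 3 and 5, which leave fewer samples; leaving out 1 library gave 0 to 13. In AngII+BAI against AngII, where 0 members were called, the count was 3 with median-ratio size factors, 1 after rescaling without mitochondrially encoded genes, 2 with the trend over transcript length removed and 0 to 4 with 1 library left out. For any difference among the 6 groups it was 0 to 6 with 1 library left out, and in the other 7 comparisons it was 0 under every alternative run. The chaperone median minus the Atf4 target median ranged over single libraries left out from -0.14 to 0.12 for AngII+ETH, -0.38 to 0.01 for AngII+GAS and -0.19 to 0.09 for AngII+VAL, each against AngII, and was 0.09 for AngII+VAL with a filter of 5 FPKM; for AngII+BAI against AngII, at 0.46, it was 0.15 to 0.64 with 1 library left out, with the low end from dropping AngII+BAI 3. It was 0.06 when replicates 3 and 5 of AngII+BAI were dropped together, 0.10 when replicate 1 was dropped too, 0.16 with array weights and 0.39 to 0.58 under the other alternatives. Apart from the library sets and the length trend, which were chosen after seeing the data, the alternatives were planned, and apart from the smaller library sets the cause of each change was not tested. Scaling moved the median of all genes by over 0.1: from 0.11 to -0.03 for AngII against Control and from -0.17 to 0.02 for AngII+GAS against AngII with quantile normalization. Among single named members, an adjusted p under 0.05 was lost in 85 and gained in 24 of the refits, 106 changed sign without a call on either side and 1852 kept sign and side. No paired analysis was possible because the labels give no replicate numbers. Low members such as Chac1, with a minimum of 16 reads, are the ones depth limits.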
